A study of Homo sapiens with 6 samples.

Results

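Kallikrein-related peptidases are secreted serine proteases. They leave the cell as inactive precursors, become active when a short propeptide is cut off, often by another protease of the family, and are held in check by serpins and by Kazal-type inhibitors such as LEKTI, the product of SPINK5. Their genes lie side by side in 1 cluster on chromosome 19, and the proteins are known from skin shedding, seminal fluid and kinin release, and as markers of several carcinomas. Described here are 10 of the 15 genes of that cluster, namely KLK1, KLK5, KLK6, KLK7, KLK8, KLK10, KLK11, KLK12, KLK13 and KLK15. All probe sets that the platform annotation assigns to 1 of these symbols were taken, which gave 20 of the 54674 probe sets on the array. They stand for 10 of the 19775 genes that have a probe set of their own. The genes were chosen by the log2 difference between treated and control cells, chiefly that of KLK12, which was already known. Their differences are therefore a description, with no p-value. Where the threshold of the fit over the whole array is mentioned for them, it serves to count them beside all probe sets, and it supports nothing.

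The RNA came from LS174T, a mucin-producing line of human colon adenocarcinoma. DMSO alone, the vehicle, was given to 3 cultures for 48 h, while another 3 were kept for the same time in 250 nM CompE, and each culture was hybridised to 1 Affymetrix Human U133 Plus 2.0 array. CompE is a common short name for Compound E, an inhibitor of the gamma-secretase complex that releases the active fragment of Notch receptors. The labels give the short name alone. The model is thus 1 cell line, 1 dose and 1 time point, and a change in RNA per cell cannot be told apart from a change in the share of cells that make the RNA.

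Median intensities lay between 36.9 and 38.6 on the 6 arrays. HES1, a repressor gene induced by Notch, had intensities of 804, 872 and 756 in DMSO and 307, 306 and 256 in CompE, a 2.81-fold fall (log2 difference -1.49 ± 0.10 SE, n = 3 arrays per group, limma adjusted p = 0.00291). All 12 colon epithelial markers examined lay above the level of the array's bacterial control probe sets, an intensity of 45.7. Of these, 3 rose in CompE (MUC2, TFF3 and CDX2) and 1 fell (CDH17). CDX2 and CDH17 lost their calls whichever array was dropped, and TFF3 did so without DMSO replicate 2 or 3 or CompE replicate 1. Markers of other cells mostly lay near or below it: 4 of 8 fibroblast, 3 of 7 leukocyte and 1 of 6 endothelial markers on the array lay above the control level in at least 1 group. PTPRC and CDH5, which define leukocytes and endothelium, did not pass the filter on dim probe sets, whereas 5 leukocyte and 4 endothelial markers did. PECAM1, also an endothelial marker, lay well above the control level, with means of 165 in DMSO and 159 in CompE. Summed intensities ran from 325 to 446 in DMSO and 391 to 400.2 in CompE for the fibroblast markers, and from 268 to 349 and 254 to 288 for the endothelial markers. Those of the leukocyte list were 1640.4 to 1944 and 1301.5 to 1560.3, of which most was LYZ, the lysozyme gene, which intestinal cells also express. For ACTB, the signal near the 3' end over that near the 5' end, which reflects how intact the RNA was, averaged 1.44 ± 0.0201 (SD, n = 3) with DMSO and 1.51 ± 0.0193 (SD, n = 3) with CompE. The same ratio for GAPDH averaged 0.968 ± 0.0106 and 0.946 ± 0.0264 (SD, n = 3 each), lower rather than higher in CompE. Their part in the values below was not tested.

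Of the 20 kallikrein probe sets, 12 lay above the bacterial control level in at least 1 group, and these covered 9 of the 10 genes. KLK13 was the exception. The other 8 probe sets lay at or below that level in both groups. A total of 14 probe sets, from the same 9 genes, passed the filter on dim probe sets and entered the fit. In that fit, 6 met the threshold of an adjusted p under 0.05 with higher values in CompE (KLK11, all 3 of KLK12 and 2 of KLK15), and 1 met it with lower values (KLK10). One of those of KLK15, 221462_x_at, passed the filter on the strength of its CompE values, its DMSO mean being under the filter's limit. Over all 26962 probe sets tested, 4.28% were called, 2.72% higher and 1.55% lower. When each array was centred on its hybridisation controls, the median difference of all probe sets shifted to -0.13. The share of rises among all calls then went from 63.7% to 18.9%. With that centring 8 kallikrein probe sets were called, 6 of them higher, and 206125_s_at of KLK8 gained a call as lower. Such a shift is small beside the differences for which the genes were picked, so the count says nothing about stability. The groups did not overlap for 9 of the 14, of which 7 were higher and 2 lower in CompE, where the share over all probe sets was 29.7%. These counts follow from how the genes were picked and carry no weight of their own. With 1 array left out, 3 to 5 kallikrein probe sets met the threshold. KLK10 and 221462_x_at of KLK15 then never did, 233477_at of KLK15 did so only without DMSO replicate 1, and KLK11 did not without CompE replicate 1.

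**Figure D1:**
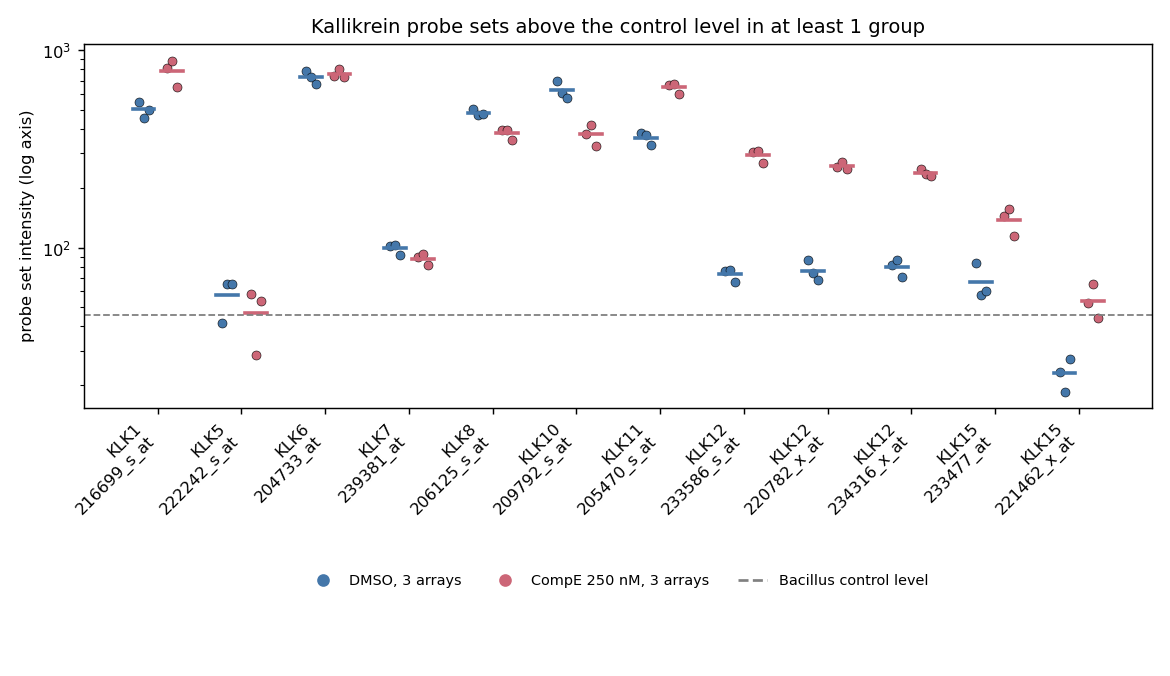
Intensity (log axis) of the 12 kallikrein probe sets above the bacterial control level in at least 1 group, with 1 point per array, a bar at each group's mean and a dashed line at the control level of 45.7. The CompE points of KLK1, KLK11, KLK12 and KLK15 lie above all DMSO points, those of KLK8 and KLK10 lie below them, and those of KLK5, KLK6 and KLK7 overlap with them.

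KLK12 differed most. It encodes a trypsin-like enzyme reported to cut growth factor-binding matrix proteins of the CCN family. Its probe set 233586_s_at had intensities of 76.1, 77.2 and 67.2 in the DMSO cultures and of 306, 308 and 267 in the CompE cultures. Every CompE culture was thus far above every DMSO culture, and the group means were 73.5 ± 5.46 and 294 ± 23.2 (SD, n = 3 each), a 4.0-fold difference (log2 difference 2.00 ± 0.09 SE). Only 7 of the 26962 probe sets tested had a larger positive difference. The probe set 220782_x_at read 86.4, 74.4 and 68.8 in DMSO and 257, 270.2 and 251 in CompE, a 3.40-fold difference (1.77 ± 0.10). For 234316_x_at the readings were 81.3, 86.1 and 71.2 against 250.2, 235 and 229, a 3.00-fold difference (1.59 ± 0.09). All 3 probe sets therefore separated the groups without overlap, with sizes between 1.59 and 2.00 on the log2 scale. Names ending in _x_at mark probe sets with probes that can also match other transcripts, and names ending in _s_at mark probe sets that match several transcripts.

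KLK15 encodes an enzyme reported to activate the precursor of prostate-specific antigen, and 4 probe sets stand for it. The brightest, 233477_at, had intensities of 83.6, 57.2 and 60.3 in DMSO and of 145, 157 and 114 in CompE, a 2.08-fold difference (log2 difference 1.06 ± 0.19 SE). The groups did not overlap, although the DMSO values spread more widely than those of KLK12. On 221462_x_at the values were 23.4, 18.6 and 27.3 in DMSO, below the bacterial control level, and 52.3, 65.4 and 43.8 in CompE. Measured against that level, the CompE mean was at least 1.16-fold higher. Both 234495_at and 234966_at stayed at intensities of 22.0 or less on every array, so they gave no level. Over all alternatives the difference of 233477_at lay between 0.90 and 1.23.

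The start regions of KLK12 and KLK15 are shown because these had the largest differences among genes with a probe set above the control level in both groups. KLK11, also higher in CompE, had start regions in the same source that are not shown. For KLK15, the outermost of its starts was taken. Both are read 5' to 3' on the minus strand of GRCh38.p14, from 250 bases before the start of transcription to 30 after it, and come from RefSeq. Capitals mark matches, on either strand, to the motifs named after them. The KLK12 region is chr19:51034973-51035252 and the KLK15 region is chr19:50833545-50833824.
KLK12: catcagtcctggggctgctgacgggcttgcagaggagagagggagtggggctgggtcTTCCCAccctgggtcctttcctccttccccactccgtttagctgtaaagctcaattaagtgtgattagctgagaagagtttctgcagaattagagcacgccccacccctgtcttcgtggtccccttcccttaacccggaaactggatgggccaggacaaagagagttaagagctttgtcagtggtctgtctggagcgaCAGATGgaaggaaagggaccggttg
KLK15: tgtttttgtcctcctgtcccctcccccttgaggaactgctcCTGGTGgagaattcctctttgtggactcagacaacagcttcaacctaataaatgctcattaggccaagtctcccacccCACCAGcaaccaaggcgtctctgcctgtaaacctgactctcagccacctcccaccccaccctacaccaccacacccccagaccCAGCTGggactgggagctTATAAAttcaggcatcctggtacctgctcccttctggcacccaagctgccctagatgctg

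In the KLK12 region, the capitals mark TGGGAA, the core of the site of the Notch partner RBPJ, on the opposite strand from position -193, and CAGATG, an E-box of the type that ATOH1-like factors use, from position 6 after the start. The KLK15 region held CACNAG, the N-box of HES repressors, at -209 on the opposite strand and at -131, the E-box CAGCTG at -48, and the TATA box TATAAA at -30. No 2 of these matches overlapped. The region at the other KLK15 start, not shown, held 1 match, CACNAG at -54 on the opposite strand, and neither CAGCTG nor TATAAA. Which start these cells used was not tested. Among the 35116 promoter windows of 300 bases in the same RefSeq table, 24.0% held TGGGAA, 14.7% CAGATG, 38% CACNAG, 17.9% CAGCTG and 11.5% TATAAA. The table had 14 windows for 8 of the 10 genes, with none for KLK1 and KLK8. Windows of 1 gene can overlap, in this set and among all windows, so sites were counted once by their position. TGGGAA had 3 sites (KLK10 and KLK12), CAGATG 2 (KLK11 and KLK12), CACNAG 5 (KLK11, KLK13 and KLK15), CAGCTG 2 (KLK7 and KLK15) and TATAAA 1 (KLK15). Counted by windows, as for the shares above, these motifs were in 14.3%, 14.3%, 35.7%, 21.4% and 7.14% of the 14, in the same order. TGTTTNC for FOXA factors, TTTATG for CDX factors, TGANTCA for AP-1 and TGTTCT, the short steroid receptor site, were also searched on both strands, and 0 of the 14 windows held them, where the shares over all windows were 18%, 10.6%, 7.71% and 14.8%. The median GC content was 62.8% in the 14 windows and 58.7% in all windows, and its part in these counts was not tested. A match is a run of letters and not evidence of binding.

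KLK11, the neighbour of KLK12 in the cluster, encodes a trypsin-like enzyme first found in brain and prostate. Its probe set 205470_s_at had intensities of 381, 373 and 330.1 in DMSO and of 671, 679 and 601 in CompE. The lowest CompE culture was well above the highest DMSO culture, and the difference was 1.80-fold (log2 difference 0.85 ± 0.09 SE). KLK1 encodes tissue kallikrein, which frees kinin peptides from kininogen. Its probe set 216699_s_at read 549, 455 and 501 in DMSO and 816, 888 and 654 in CompE, a 1.56-fold difference (0.64 ± 0.13). The groups did not overlap, but the CompE cultures spread widely (SD 119.6 around a mean of 786), and the probe set did not meet the threshold. In 3 of the 16 settings in which it was tested, the main one included, it did.

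KLK10 differed the other way. It encodes an atypical kallikrein, first described as a gene lost in breast cancer cells, and it lies next to KLK11. On 209792_s_at its intensities were 702, 606 and 575 in DMSO and 378, 418 and 328 in CompE. All CompE cultures were below all DMSO cultures, and the difference was 1.68-fold (log2 difference -0.75 ± 0.12 SE). The difference lay between -0.89 and -0.65 over all alternatives. Its other probe set, 215808_at, lay below the control level on every array. KLK8, the gene of neuropsin, a protease studied in synaptic plasticity, lies 2 places from KLK10 in the cluster. Its probe set 206125_s_at read 502, 472 and 474 in DMSO and 393, 395 and 351.2 in CompE. These groups did not overlap either, with a 1.27-fold lower level in CompE (-0.35 ± 0.07) that did not meet the threshold. In 6 of the 17 settings in which this probe set was tested, the main one included, it did. The dimmer 1552319_a_at, between 21.8 and 49.9, gave no level above the controls in either group.

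KLK6, KLK7 and KLK5 overlapped between the groups. KLK6 encodes a trypsin-like enzyme abundant in the nervous system and raised in several carcinomas. Its probe set 204733_at was at 786, 732 and 671 in DMSO and at 745, 801 and 729 in CompE (log2 difference 0.06 ± 0.08 SE). With hybridisation control centring the difference was -0.09, and over all alternatives it lay between -0.09 and 0.11. KLK7 and KLK5 encode the chymotrypsin-like and the trypsin-like enzyme that loosen the outer skin layer. KLK7 was at 102, 104 and 91.7 in DMSO and at 89.6, 92.9 and 81.3 in CompE on 239381_at (-0.17 ± 0.08). The other KLK7 probe set, 205778_at, lay between 24.6 and 45.8. KLK5 was near the control level, with 41.4, 65.2 and 65.7 in DMSO and 58.2, 28.7 and 53.5 in CompE on 222242_s_at. The CompE mean was just below that level, so that the log2 difference of -0.33 ± 0.32 SE is no measured size. Without CompE replicate 2 this difference was -0.01, and no fall can be stated. KLK13, whose enzyme is found in testis and squamous epithelium, had 3 probe sets with values between 0.22 and 32.5 over the 6 arrays. None reached the control level in a group or passed the filter.

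Along the chromosome, the differences changed direction between the adjacent genes KLK10 and KLK11. KLK10, KLK11 and KLK12 stand in a row, at -0.75, 0.85 and up to 2.00 on the log2 scale. KLK8 (-0.35), beyond the gene KLK9, lay on the side of KLK10, as did KLK7 (-0.17), whose groups overlapped. KLK6 (0.06), next to KLK7, did not, and its groups overlapped too. On the far side of KLK12, KLK13 gave no level and KLK14 was at 0.04. KLK3 and KLK4, between KLK15 and KLK5, had probe sets in both directions. At the other end of the cluster KLK1 (0.64) and KLK15 (1.06 on 233477_at) are neighbours. A single probe set is assigned to both KLK8 and KLK9, 233687_s_at. It names no gene of its own and stayed at 21.6 or less on every array.

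**Figure D2:**
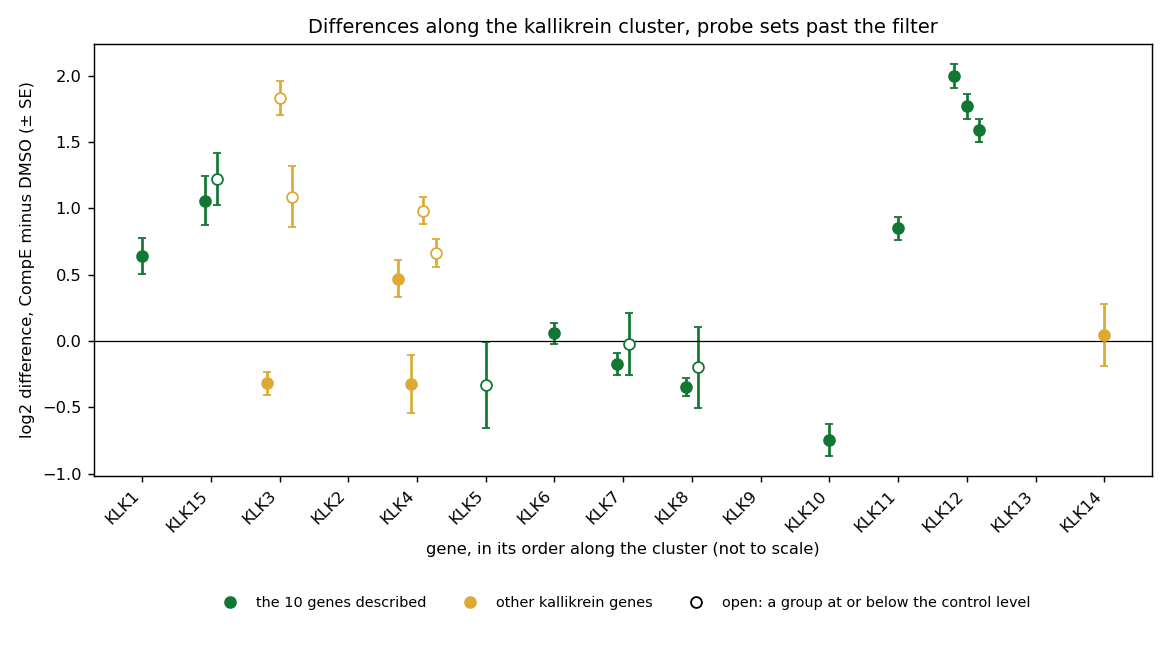
Log2 difference between CompE and DMSO (points, with the standard error as bars) for every kallikrein probe set past the filter, with genes in their order along chromosome 19 and not to scale. Filled points lie above the bacterial control level in both groups, and open points have a group at or below it, so that their height is no measured size. KLK10 lies at -0.75 beside KLK11 at 0.85 and KLK12 at 1.59 to 2.00.

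Of the other 5 genes of the cluster, KLK2, KLK3, KLK4 and KLK14 have 13 probe sets of their own. By the brightest probe set of each gene, 3 could be tested, and 0 passed in limma (before adjustment, at p under 0.05, 1 were above 0 and 1 below). Their median log2 difference was 0.04, where that of all 14308 genes was 0.02. Other probe sets of KLK3 and KLK4, chosen for mention after their values were seen, did differ. KLK3, the gene of prostate-specific antigen, read 25.2, 34.3 and 29.5 in DMSO and 114, 101 and 99.0 in CompE on 204582_s_at. Measured against the control level, that is at least 2.29-fold higher (limma adjusted p = 0.00337). On 204583_x_at the groups did not overlap either, with at least 1.69-fold higher values that missed the threshold (adjusted p = 0.0623). The probe set with the highest mean, 231629_x_at, gave a log2 difference of -0.32 ± 0.09 SE (adjusted p = 0.104), also without overlap, so that 2 probe sets of KLK3 were higher in CompE and 1 was lower. KLK4 encodes an enamel protease. Its 224062_x_at and 233854_x_at had DMSO means below the control level and were at least 1.71-fold and 1.41-fold higher in CompE (limma adjusted p = 0.00954 and 0.0320). The brightest, 1555737_a_at, read 83.3, 104 and 92.9 in DMSO and 109, 145 and 135 in CompE, without overlap (log2 difference 0.47 ± 0.14 SE, adjusted p = 0.126). On 1555697_at the groups overlapped, with a difference of -0.33 ± 0.22 (adjusted p = 0.444). The call of 224062_x_at ended without DMSO replicate 2 or CompE replicate 1 (adjusted p up to 0.0551), and that of 233854_x_at with any 1 array dropped (adjusted p up to 0.106). Kallikrein genes resemble each other in sequence, and how far 1 transcript adds to the reading of another's probe set was not tested. KLK14 had values between 52.8 and 84.1 over both groups.

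The 12 probe sets above the control level often had the same lowest replicate within a group. CompE replicate 3 was the lowest of the CompE cultures for 11 of them, where this holds for 43.7% of all probe sets tested above that level. DMSO replicate 3 was the lowest DMSO culture for 7, against 34.4% of all. HES1 was also lowest in replicate 3 of each group. The 12 probe sets share arrays and in part genes, so these counts are a description.

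Genes on either side of the cluster were also examined. Of the 10 protein-coding genes on each side, 17 were on the array and 8 passed the filter, and 0 passed in limma (before adjustment, at p under 0.05, 0 were above 0 and 2 below). Their median log2 difference was -0.12. CLDND2, a claudin domain gene, had the smallest p (adjusted p = 0.101), with mean intensities of 44.5 in DMSO and 35.8 in CompE, both below the bacterial control level.

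Other proteases, most of which cut after basic residues and several of which can activate kallikrein precursors, moved downward where they moved. Of 18 such genes 14 were tested, and 3 fell, 0 rose and 11 did not pass (before adjustment, at p under 0.05, 0 were above 0 and 5 below), where 4.95% of all genes were called, 3.23% higher and 1.72% lower. Their median was -0.25, against 0.02 for all genes. PRSS2, a trypsinogen gene, was at 1062, 1011 and 972 in DMSO and at 495, 563 and 499 in CompE, a 1.96-fold fall (limma adjusted p = 0.00437). TMPRSS4, a membrane-bound serine protease gene of epithelial tumours, fell 1.73-fold, from 1050.1, 1015 and 955 to 559, 622 and 560.4 (limma adjusted p = 0.00667). PRSS3, the gene of mesotrypsin, fell 1.71-fold, from 1183, 1153 and 1140.0 to 688, 745 and 608 (limma adjusted p = 0.0123). In each of the 3 genes the groups were far apart. PRSS2 and PRSS3 are near-identical to other trypsinogen genes, so that the source of their signal is uncertain, and their other probe sets gave -1.02 and -0.82. The call of PRSS3 ended without CompE replicate 1 or any of the DMSO arrays (adjusted p up to 0.0638).

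Both inhibitor genes that passed rose. Of 20 inhibitor genes 9 were tested, and 2 rose, 0 fell and 7 did not pass (before adjustment, at p under 0.05, 3 were above 0 and 2 below). The median was 0.06. SPINK5, the gene of LEKTI, was not among the 16 of the 20 with a probe set of their own, so its level was not measured. SPINK4, which encodes a Kazal-type inhibitor made by goblet cells, rose 2.75-fold, from 838, 842 and 817 to 2294, 2419 and 2172 (limma adjusted p = 0.00132). SERPINA1, the gene of alpha-1-antitrypsin, rose 2.35-fold, from 192, 183 and 176 to 438, 433 and 425 (limma adjusted p = 0.00145). Of its 2 other probe sets, 202833_s_at gave a log2 difference of 1.34 and the other lay below the control level in both groups. Both genes separated the groups by far more than the spread of the cultures.

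The list of reported substrates and receptors of kallikreins holds desmosomal cadherins, protease-activated receptors and kinin receptors. Of its 23 genes 13 were tested, and 1 fell, 0 rose and 12 did not pass (before adjustment, at p under 0.05, 1 were above 0 and 1 below). The median was 0.10. F2RL1, a protease-activated receptor gene of the list, had no probe set of its own. The gene that fell was CCN2, a matrix protein gene related to reported KLK12 substrates. It was at 45.3, 49.3 and 56.6 in DMSO and at 30.9, 32.4 and 27.1 in CompE, at least 1.10-fold lower against the control level (limma adjusted p = 0.0272). Its call ended whichever array was left out (adjusted p up to 0.0997). Of 16 genes of cornified and squamous epithelium, where kallikreins are best known, 7 were tested and 0 passed in limma (before adjustment, at p under 0.05, 1 were above 0 and 1 below). Their median was 0.11. GRHL3, a transcription factor gene of the skin barrier, had the smallest p (at least 1.37-fold lower against the control level, adjusted p = 0.210).

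**Figure D3:**
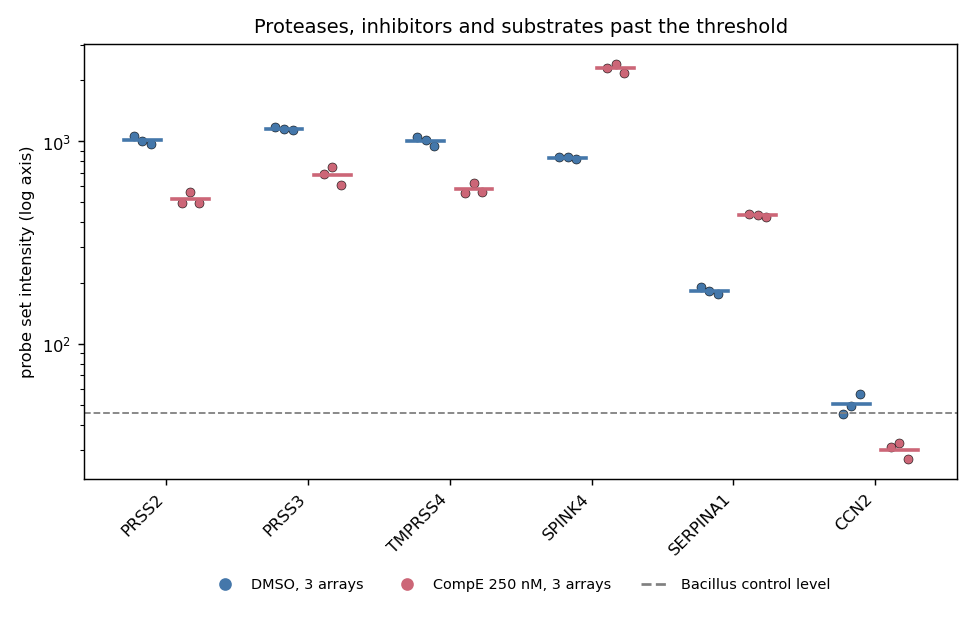
Intensity (log axis) of the proteases, inhibitors and substrates that passed the threshold, with 1 point per array, a bar at each group's mean and a dashed line at the bacterial control level of 45.7. PRSS2, PRSS3 and TMPRSS4 lie lower in all 3 CompE cultures than in any DMSO culture, SPINK4 and SERPINA1 lie higher, and CCN2 lies near the control level.

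The 5 genes whose values over the 6 arrays were most like those of KLK12 on 233586_s_at were OR51E1, RETNLB, ANXA13, DLL4 and NEUROG3. Likeness was the root mean square difference between log2 values centred on each gene's mean, and it was 0.110, 0.117, 0.129, 0.144 and 0.177 log2 units, out of 14299 genes compared. OR51E1 is an odorant receptor gene, RETNLB a goblet cell product gene, ANXA13 an intestinal annexin gene, DLL4 a Notch ligand gene and NEUROG3 the endocrine progenitor factor gene. Since 6 arrays in 2 groups leave little room for patterns other than the group difference, the measure mainly finds rises of similar size. The log2 differences of OR51E1, RETNLB, ANXA13 and DLL4 ran from 1.80 for DLL4 to 2.15 for ANXA13, beside 2.00 for KLK12. ANXA13 read 43.9, 49.6 and 46.2 in DMSO, around the control level of 45.7, so that its difference starts from a barely measured level. NEUROG3 had a mean of 16.2 in DMSO, below the control level and the filter's limit, so that it passed the filter through its CompE values. It was at least 1.35-fold higher in CompE, and its likeness rests in part on values that are no measured level.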

How the data were processed

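Per the series design text, the authors labelled RNA amplified from the 3' end and used dChip to even out intensities between arrays. The deposited values are linear intensities per probe set, as the authors left them. For mismatch probes, their use is not stated in those sources. Values under 1 were replaced by 1, and the log2 of each was used, with no further normalization. The 62 control probe sets and the lowest 40% by mean log2 value over all arrays (intensity up to 24.4) were left out. Only probe sets with 1 gene were tested (26962), with symbols from the platform annotation updated through the GRCh38.p14 gene table (41043 of 41097 matched). The fit was limma 3.58.1 in R 4.3.3, two-sided, with no covariate, and Benjamini-Hochberg adjustment over all probe sets tested, with a threshold of 0.05. It was tested on simulated data. The probe set with the highest mean stood for a gene in the lists. The bacterial control level is the 95th percentile of the mean log2 values of 27 Bacillus probe sets. Where the dimmer group lay at or below it, the fold is a lower bound ("at least"), with each dim array set to the higher of that level and its own value. The number of arrays limits the precision, and the median SE of a log2 difference was 0.09. The members, lists and tests were chosen with earlier results of these data known. Genes named from a list are up to 3 that passed with the smallest p, or the 1 with the smallest p where none passed. Outside this rule, CDH17, LYZ, PECAM1, KLK14, and probe sets of KLK3 and KLK4 were named after their values were seen. Same-numbered replicates of the groups did not deviate together (r = 0.02, -0.09 and -0.03), so the numbers were not taken as pairs. Alternatives were other filters, scalings, offsets, sets of probe sets tested, a replicate block and leaving out each array.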

Additional observations from a re-analysis of the deposited data

How the results depend on the processing

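The number of probe sets called, 1153 in all and 7 of the kallikrein genes, depended on how many probe sets and arrays were used. With no filter the counts were 216 and 4, with 60% left out 2522 over all genes, with hybridisation control centring 1987, and with the 10896 least variable probe sets 4088 and 1 (fewer probe sets, chosen for low spread). With 1 array left out they ran from 193 to 401 and from 3 to 5. With the replicate number as a block, although the numbers did not pair the samples, 31 probe sets and 3 of the kallikreins were called, and 0 of the proteases and 0 of the substrates. The substrates had 0 calls with no filter, 0 with any array dropped, and 2 with 1 probe set per gene. Kallikrein genes outside the 10 had 1 call with 60% left out and 1 with hybridisation control centring. Cluster neighbours had 2 calls with that centring and 2 with the least variable probe sets. The cause of these changes was not tested. The differences of the 3 KLK12 probe sets, by which the genes were chosen, lay between 1.42 and 2.07. Of 300 recomputed kallikrein differences, 288 stayed within 1 SD of the replicates, 12 moved by more, and 0 of those called changed sign. Many could not move by more, so that the count says little about stability. Some alternatives change only which probe sets are tested and leave the difference as it was. Dropping 1 of 3 arrays shifts a difference by less than 1 SD. HES1 kept its call in the alternatives in which it was tested. The small difference of KLK14, 0.04, was not called and changed sign, to -0.10 with hybridisation control centring and in a range of -0.13 to 0.26 with 1 array left out.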
